A study of Mus musculus with 9 samples.

Results

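Olr1 encodes LOX-1, a C-type lectin-like receptor for oxidized low-density lipoprotein, and was examined in mouse skin neutrophils together with 8 other genes of lipoprotein and scavenger receptors: Cd36, Msr1, Marco, Scarb1, Scarb2, Cd68, Vldlr and Cxcl16. The genes were chosen by name, and every probe carrying one of the 9 names was taken, which gave 13 of the 55681 probes in the deposited value table and 9 of 34797 gene names on the array. Olr1, Cd36, Marco, Scarb2 and Cxcl16 had 1 probe each, and the other genes had 2. Neutrophils were sorted as Gr-1bright cells from FVB/N mice whose skin had received the carcinogen DMBA at an age of 6 weeks and again at 13 weeks, and the phorbol ester PMA repeatedly from week 1 to between weeks 18 and 20, a treatment that all groups share. The groups were papilloma skin (skin next to papillomas, 2 arrays), tumor skin (skin next to tumors, 2 arrays), papilloma (3 arrays) and tumor (2 arrays), where tumors are cutaneous squamous cell carcinomas. RNA of each array was pooled from several mice, so that an array is a pool and not an animal, and no skin without carcinogen was among the arrays. Bulk RNA of sorted cells cannot tell fewer cells of a type from less RNA per cell.

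Scavenger receptors are membrane proteins of unrelated structure that bind modified lipoproteins, apoptotic cells and microbes, and carry them into the cell. Macrophages are the cells best known for them, where uptake of oxidized lipoprotein through Msr1 and Cd36 gives foam cells. LOX-1 was first described on endothelial cells and is used in human blood and tumors to mark a population of immunosuppressive neutrophils. Most of the other members are receptors of the plasma membrane, whereas Scarb2 and Cd68 sit mainly in lysosomes.

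The Olr1 probe lies at chr6:129435316-129435375 on the minus strand of mm9, as the array files give it, and which exon it falls in was not determined here. Letters of the gene's promoter are shown because Olr1 was the member that moved. The stretch holds the 100 bases before an annotated Olr1 start on the minus strand, chr6:129507166-129507265 in RefSeq on GRCm38.p6, with the capitals marking TTCCTC, the reverse complement of GAGGAA, and then TGAGTCA.

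Olr1: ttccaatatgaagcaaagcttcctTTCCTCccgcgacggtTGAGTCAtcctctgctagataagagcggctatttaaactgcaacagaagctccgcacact

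The gene model runs 185 bases beyond this start. The letters TGANTCA, known as the element through which AP-1 and phorbol esters such as PMA act, stood 60 to 54 bases before the start and were found in 6.75% of 32851 windows of 250 bases before annotated starts, on either strand. GAGGAA, a core of sites of the myeloid factor PU.1, stood 76 to 71 bases before it and was found in 23.3% of windows. The other elements searched gave no match before Olr1, namely CACGTG and the ACGTG it contains, TTNNGCAA, TATAAA, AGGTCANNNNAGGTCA, and for NF-kB GGGNNNNTCC or GGGANNNNCC. Of the 9 genes, 6 had an entry in the promoter table, and Cd68 was the only other one with TGANTCA, at 149 to 143 bases before its start as its first match. That window lies at chr11:69666303-69666329, minus strand, with TGAGTCA in capitals.

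Cd68: aagttccgtgTGAGTCAgctgcctcat

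GAGGAA was also found before Cd68, Marco and Vldlr, Cd36 and Scarb2 held neither element, and none of the 5 genes whose pattern was most like that of Olr1, given further on, held TGANTCA. These matches describe letters and were not set against any binding data.

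The arrays differed in quality before any comparison. Spike-in signal rose with spike-in amount with a slope of 1.04 to 1.06 on 6 arrays, but of 0.678 for papilloma skin 1, 0.876 for tumor skin 1 and 0.894 for tumor 1, and probes well above background made up 90.7% to 95.0% on these last 3 arrays against 44.2% to 64.2%. In the value table, the column of papilloma skin 1 correlated with its own scanner file at a Spearman rho of 0.587 and with that of tumor 2 at 0.923, and the column of tumor 1 at 0.825 with its own and 0.946 with that of tumor 2. The columns of papilloma 2 and papilloma 3 were each closest to the other's file, at 0.981 and 0.958. Results below are therefore given with and without the columns of papilloma skin 1 and tumor 1, which leaves 7 columns. Of the neutrophil markers, S100a8 had log2 values of 17.9 to 18.2 in all columns, and the 15 listed neutrophil markers had a mean log2 value of 14.2 to 15.6 in every skin and tumor array and of 13.7 to 14.0 in papilloma. Of all probes, 3.18% were called in papilloma over papilloma skin and 4.21% in tumor over tumor skin, in either direction. Of the 18 neutrophil marker probes, 5 were called lower in papilloma over papilloma skin and 6 in tumor over tumor skin, none higher. These were granule genes such as Camp, the cathelicidin, at 14.7 to 15.7 in skin and 11.0 to 11.8 in lesions, and in tumor also Ly6g, which encodes an antigen of the Gr-1 sort. Their part in the results below was not tested.

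Olr1 transcript was higher in neutrophils from lesions than in those from the skin around them, at both stages. Its log2 values were 8.73 and 8.94 in papilloma skin, and 10.96, 10.82 and 10.91 in papilloma. They were 7.68 and 8.15 in tumor skin, and 10.14 and 10.14 in tumor. All 5 lesion arrays lay above all 4 skin arrays, a separation that 12.1% of all probes showed in either direction. The probe was well above background on all 9 arrays.

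**Figure D1:**
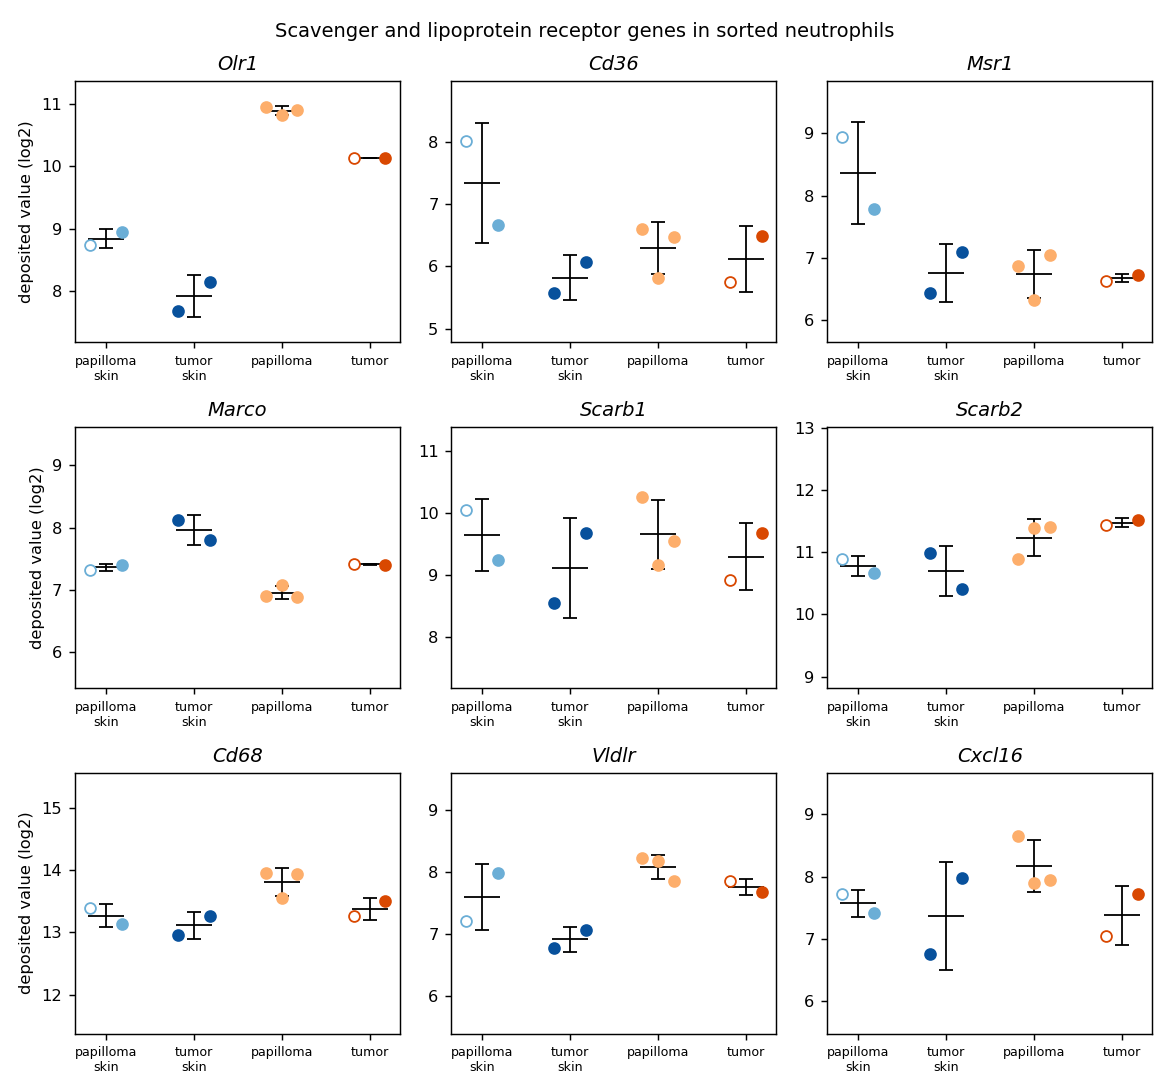
Deposited log2 value (vertical axis, of the same span in each panel) of the brightest probe of each of the 9 genes in the 4 groups; points are arrays, open points are the columns of papilloma skin 1 and tumor 1, and bars are mean and SD over 2 or 3 arrays. Olr1 is at 10.82 to 10.96 in papilloma and 10.14 in tumor, against 7.68 to 8.94 in skin, whereas Msr1 and Cd36 are highest in papilloma skin.

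In papilloma, Olr1 rose 4.17-fold over papilloma skin, a log2 fold change of 2.06 with an SE of 0.16 and an adjusted p of 0.000524 (limma, Benjamini-Hochberg over all 55681 probes). In tumor it rose 4.68-fold over tumor skin, by 2.23 on the log2 scale with an SE of 0.18 and an adjusted p of 0.00092. Among all probes, 0.384% had a larger log2 fold change in papilloma and 0.375% in tumor, which places Olr1 far up the list but not at its top. Of the probes called higher, 16.2% in papilloma and 12.9% in tumor exceeded it.

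The test did not separate the size of the rise at the 2 stages. The lesion effects differed by 0.17 with an SE of 0.24 and an adjusted p of 0.80, and none of the 13 probes was called for this difference, against 0.0269% of all probes, with 1 at an unadjusted p under 0.05. Levels ran from papilloma over tumor and papilloma skin to tumor skin. Tumor against papilloma skin, the middle step of this order, differed by 1.30 with an adjusted p of 0.00643. The outer neighbours did not pass the test, with tumor against papilloma at -0.76 and an adjusted p of 0.108, and tumor skin against papilloma skin at -0.92 and an adjusted p of 0.0596, although the arrays of each pair did not overlap, as was the case for 36.2% and 48.9% of all probes.

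Without the columns of papilloma skin 1 and tumor 1, the log2 fold change of Olr1 was 1.95 in papilloma with an adjusted p of 0.0249 and 2.23 in tumor with an adjusted p of 0.0202. Leaving out any single column kept both calls, with log2 fold changes of 1.95 to 2.17 in papilloma and 1.99 to 2.46 in tumor. Differences between arrays of the same slide were 2.23 on slide 1 and 1.88 on slide 2 for papilloma over papilloma skin, and 2.46 on slide 1 for tumor over tumor skin. The assignment of papilloma 2 to slide 2 follows its scanner file, and its column in the table was closest to the file of papilloma 3. The slide 1 values use the columns of papilloma skin 1 and tumor 1, each closest to the file of tumor 2, an array of slide 2. After quantile normalization of the scanner signals these differences were 7.04, 1.83 and 2.46, in the same order. In the scanner files themselves, Olr1 was also higher in lesions, but no probe of the array passed the test there in papilloma over papilloma skin or in tumor over tumor skin. The log2 processed signal of Olr1, before any scaling between arrays, was 6.33 and 8.11 in papilloma skin and 7.66 and 6.92 in tumor skin. It was 9.73, 11.27 and 11.42 in papilloma and 10.31 and 11.06 in tumor, so that lesion and skin arrays did not overlap. The share of all probes that separate in these unscaled signals was not counted. The brighter Cd68 probe, which was not called, separated there as well, at 11.8 to 12.9 in skin and 13.4 to 14.5 in lesions. After quantile normalization of these signals Olr1 in tumor 1, at 9.13, fell just below papilloma skin 2, at 9.30, and papilloma skin 1 dropped to 3.20. The log2 fold change of Olr1 was then 4.53 in papilloma with an adjusted p of 0.505 and 2.26 in tumor with an adjusted p of 1.00.

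**Figure D2:**
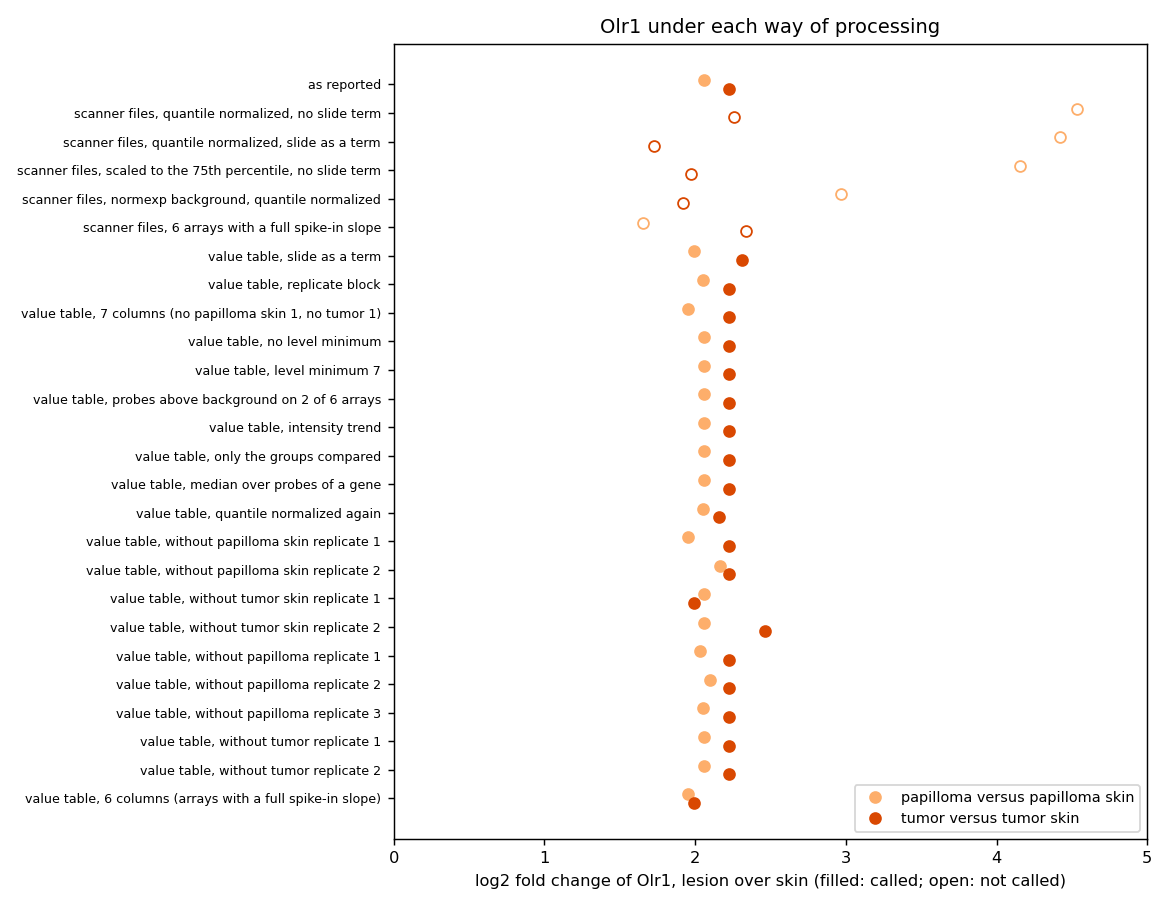
Log2 fold change of Olr1 in lesion over surrounding skin (horizontal axis) under each way of processing (vertical axis), with filled points where the probe passed the call and open points where it did not. Values from the deposited table lie between 1.95 and 2.46 and are all called, and those from the scanner files lie between 1.65 and 4.53 and are not called.

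Markers of cells other than neutrophils moved with the same comparison. Of all probes, 3.18% were called in papilloma over papilloma skin and 4.21% in tumor over tumor skin, in either direction. Of 16 probes for 12 endothelial genes, 8 were called higher in papilloma over papilloma skin and 3 in tumor over tumor skin, none lower. The mean log2 value of these genes was 7.25 to 8.06 in papilloma skin, 6.80 to 7.02 in tumor skin, 8.88 to 9.39 in papilloma and 7.48 to 8.28 in tumor. Their summed linear level in units of 1000 was 7.94 to 9.57 in papilloma skin, 9.64 to 17.2 in tumor skin, 9.93 to 16.0 in papilloma and 6.51 to 8.01 in tumor, where the sum is carried mostly by Kdr, and it was lower in tumor than in tumor skin. None of the endothelial genes was at background on all arrays, with VE-cadherin (Cdh5) well above it on 4 of the 6 arrays of full spike-in slope. Keratinocyte genes had 4 of 26 probes called higher in papilloma and 5 in tumor, and fibroblast genes 2 of 11 higher at either stage and 1 lower in tumor. Red blood cell genes, 7 genes with 8 probes, moved in opposite directions at the 2 stages, with 3 probes called lower in papilloma (list median -1.12) and 5 higher in tumor (list median 2.19). Their summed level in the same units was 66.3 to 117 in papilloma skin, 61.9 to 104 in tumor skin, 10.9 to 26.1 in papilloma and 401 to 578 in tumor. The part of these cells in the Olr1 values was not tested.

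**Figure D3:**
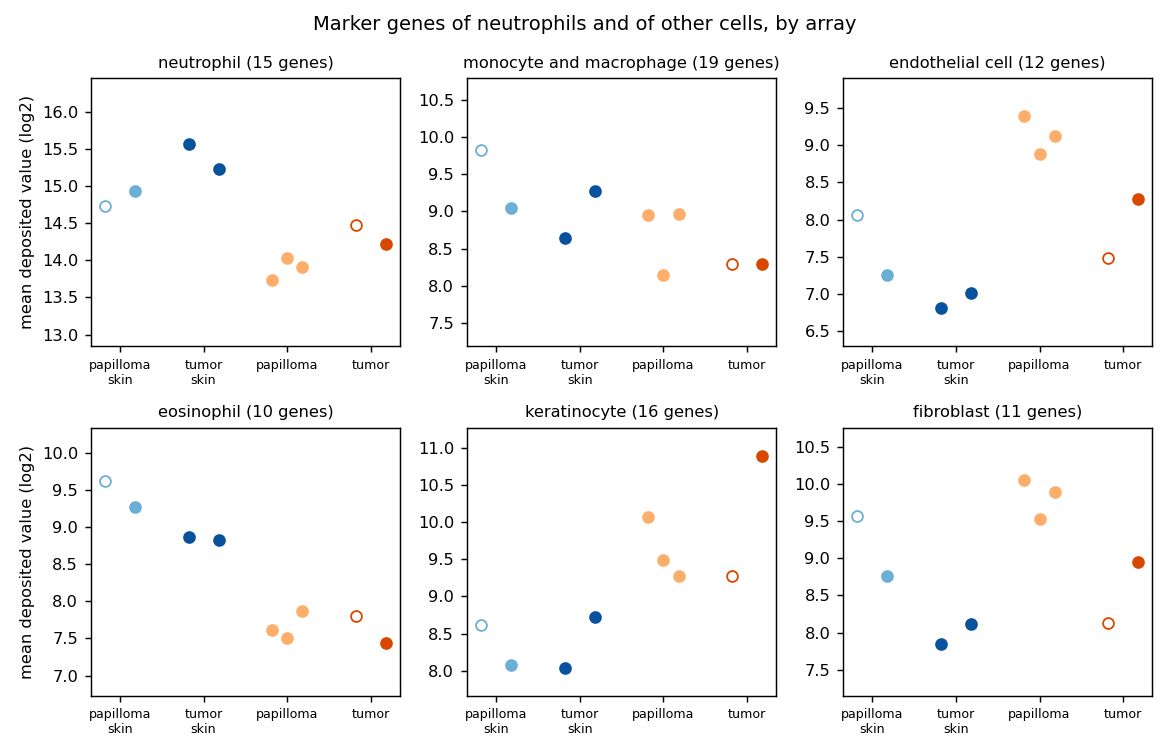
Mean deposited log2 value (vertical axis) of the marker genes of neutrophils and 5 other cell types, by array and group; each point is an array and open points are the columns of papilloma skin 1 and tumor 1. Endothelial and keratinocyte genes are higher in papilloma than in papilloma skin, and eosinophil genes are lower in every lesion array, at 7.44 to 7.87 against 8.82 to 9.62 in skin.

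Of the class A scavenger receptors, Msr1 was lower in papilloma and Marco passed no call against the skin of its own stage. Msr1, the macrophage scavenger receptor that binds acetylated lipoprotein, was measured by probes at chr8:40709296-40709355 and chr8:40689158-40689217 (mm9, minus strand). The first gave 8.95 and 7.79 in papilloma skin, 6.43 and 7.09 in tumor skin, 6.86, 6.31 and 7.04 in papilloma, and 6.63 and 6.72 in tumor. Papilloma skin was above the other 3 groups in both of its arrays, most of all in papilloma skin 1. This probe fell by 1.63 in papilloma over papilloma skin, with an SE of 0.36 and an adjusted p of 0.0372. The second probe had a change of -1.39 and an adjusted p of 0.0923, again with both papilloma skin arrays above all others. In tumor over tumor skin the changes were -0.09 and -0.17, with adjusted p of 0.916 and 0.847, and the difference between the stages had adjusted p of 0.261 and 0.395.

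The Msr1 call rested on few arrays. Without the columns of papilloma skin 1 and tumor 1 it was -1.05 with an adjusted p of 0.227, and it was called under 10 of 25 alternatives. Within slides the first probe was 2.09 lower in papilloma 1 than in papilloma skin 1 on the log2 scale and 1.48 lower in papilloma 2 than in papilloma skin 2. After quantile normalization of the scanner signals the same differences were 1.11 and -0.79, so the sign on slide 1 was reversed. The column of papilloma skin 1 was closest to the scanner file of tumor 2, an array of slide 2. Macrophage markers moved with it in papilloma, and some were called lower in tumor too, where Msr1 had no call. Of all probes, 3.18% were called in papilloma and 4.21% in tumor, in either direction. Of 25 probes for 19 monocyte and macrophage genes, 5 were called lower in papilloma and 5 in tumor, none higher. Their mean log2 value was 9.04 to 9.83 in papilloma skin, highest in papilloma skin 1, and 8.64 to 9.27 in tumor skin, 8.15 to 8.97 in papilloma and 8.29 in both tumor arrays. Their summed linear level in the same units was 85.3 to 113 in papilloma skin, 96.9 to 141 in tumor skin, 43.4 to 59.4 in papilloma and 48.8 to 53.4 in tumor. This sum is carried mostly by Csf1r and Ly6c1. The brightest probe of either gene was not called in papilloma, and that of Ly6c1 was called lower in tumor. Emr1, a macrophage antigen, was 12.1 and 11.9 in papilloma skin, 10.8 and 10.9 in tumor skin and 8.6 to 9.0 in the 5 lesion arrays. It was called lower at both stages, unlike Msr1. Csf1r, at 15.1 and 15.2 in papilloma skin and 14.5 to 14.8 in papilloma, was not called at either stage. Vsig4 was well above background on 1 of the 6 arrays of full spike-in slope. Not all macrophage genes followed the order of Emr1. C1qa, of complement, was 6.67 and 6.37 in papilloma skin and 7.08 to 7.70 in papilloma, C1qc and Mrc1 overlapped between these groups, and Lyve1 was called higher in all lesions over all skin. The part of these cells in the Msr1 values was not tested.

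Marco, a collagen-like receptor of class A that binds bacteria and particles, had log2 values of 7.32 and 7.40 in papilloma skin, 8.13 and 7.79 in tumor skin, 6.89, 7.07 and 6.89 in papilloma, and 7.42 and 7.40 in tumor. Lesion arrays lay below the skin arrays of their own stage in both cases. Of all probes, 37.6% did not overlap in papilloma over papilloma skin and 52.1% in tumor over tumor skin, in either direction. The changes were -0.41 in papilloma with an adjusted p of 0.153 and -0.55 in tumor with an adjusted p of 0.0652. Pooled over stages, lesions against skin gave -0.48 with an adjusted p of 0.0209, which is past the p threshold and short of the fold threshold of 1 on the log2 scale.

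Class B receptors showed no call. Cd36, the fatty acid and oxidized lipoprotein receptor, was 8.02 and 6.66 in papilloma skin, 5.57 and 6.07 in tumor skin, 6.60, 5.82 and 6.48 in papilloma, and 5.75 and 6.49 in tumor. Its highest value came from papilloma skin 1 and most others were close to the array median of about 6.1, and the probe was not well above background on tumor skin 2. The change in papilloma was -1.04 with an SE of 0.43 and an adjusted p of 0.215, and that in tumor was 0.30 with an SE of 0.47 and an adjusted p of 0.733. Scarb1, the receptor for high-density lipoprotein, had 2 probes whose changes ranged from 0.01 to 0.45 over both stages. The smallest adjusted p among these was 0.133, and the brighter probe spread from 8.55 to 9.68 within tumor skin alone.

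The lysosomal members had no call either. Scarb2, also known as LIMP-2, carries glucocerebrosidase to lysosomes and was 10.89 and 10.67 in papilloma skin, 10.98 and 10.41 in tumor skin, 10.89, 11.40 and 11.41 in papilloma, and 11.43 and 11.52 in tumor. Tumor arrays lay above all skin arrays, and papilloma 1 was level with papilloma skin 1. The change was 0.45 in papilloma with an adjusted p of 0.303, 0.78 in tumor with an adjusted p of 0.0839, and 0.62 over both with an adjusted p of 0.042, below the fold threshold. Cd68, a lysosomal glycoprotein of phagocytes, had its brighter probe at 12.96 to 13.40 in skin and 13.26 to 13.95 in lesions. Its 2 probes changed by 0.55 and 0.26 in papilloma and by 0.27 and 0.76 in tumor, and none of these changes passed.

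Vldlr, which takes up triglyceride-rich lipoprotein, had a brighter probe with 7.22 and 7.98 in papilloma skin, 6.77 and 7.06 in tumor skin, 8.22, 8.17 and 7.86 in papilloma, and 7.85 and 7.67 in tumor. It was lowest in tumor skin. The change was 0.49 in papilloma with an adjusted p of 0.291, 0.85 in tumor with an adjusted p of 0.0766, and 0.67 over both stages with an adjusted p of 0.038, again below the fold threshold. The second Vldlr probe had a mean of 5.85, under the level minimum of 6, and its spots on the 6 arrays of full spike-in slope did not stand well above background, so no fold is given for it. Cxcl16 is both a scavenger receptor and, once shed, a chemokine. It had log2 values of 6.75 to 7.98 in skin and 7.04 to 8.65 in lesions, and its changes of 0.60 in papilloma and 0.01 in tumor had adjusted p of 0.439 and 0.992.

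**Figure D4:**
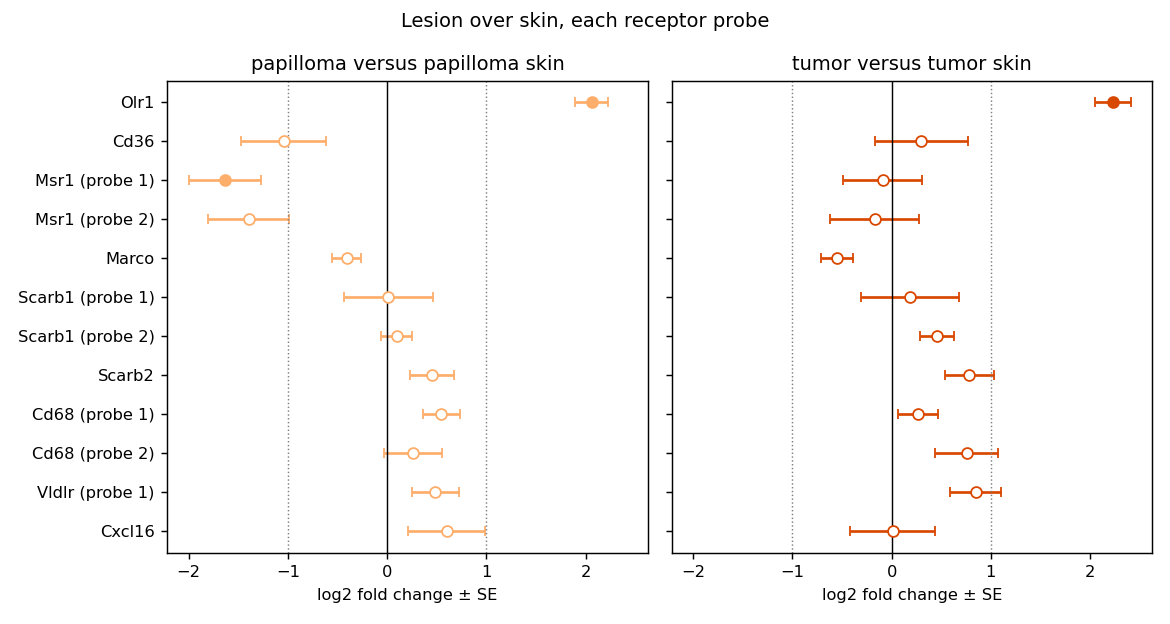
Log2 fold change (horizontal axis, bars are SE) of 12 receptor probes in papilloma over papilloma skin (3 against 2 arrays) and tumor over tumor skin (2 against 2 arrays), with filled points where the probe was called and dotted lines at a fold change of 1 on the log2 scale. Olr1 stands apart at 2.06 and 2.23, Msr1 is at -1.63 in papilloma, and the second Vldlr probe, near background, is left out.

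Counted over the members, papilloma over papilloma skin had 1 probe called higher (Olr1) and 1 lower (Msr1) of 13, against 3.18% of all probes called, 2.18% higher and 1% lower. Tumor over tumor skin had 1 called of 13, Olr1, in the higher direction, against 4.21% of all probes and 2.71% called higher. All lesions over all skin likewise had 1, Olr1, against 3.62%. Tumor against papilloma had 0 called against 0.447%, with 3 probes at an unadjusted p under 0.05 in limma. Tumor skin against papilloma skin had 0 called against 0.26%, with 7 probes at an unadjusted p under 0.05. The median log2 fold change of the 13 probes was 0.10 in papilloma and 0.27 in tumor, beside medians of -0.01 and -0.02 over all probes. Arrays of the groups compared did not overlap for 7 of 13 probes in papilloma, where 37.6% of all probes did so, and for 7 of 13 in tumor, where 52.1% did.

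Other receptors were taken from a list of 33 scavenger and lipoprotein receptor genes without the members, of which 32 were on the array with 47 probes. In papilloma 3 probes were called higher and 0 lower, and in tumor 2 higher and 1 lower, with list medians of 0.06 and -0.01. Of all probes, 3.18% were called in papilloma and 4.21% in tumor, in either direction. Havcr2, which encodes TIM-3, a receptor for phosphatidylserine and galectin-9 and an immune checkpoint, rose at both stages. It was 9.17 and 9.38 in papilloma skin and 11.68, 11.98 and 11.96 in papilloma, a change of 2.60 with an adjusted p of 0.000494. It was 9.06 and 8.60 in tumor skin and 10.54 and 10.11 in tumor, a change of 1.50 on the log2 scale with an adjusted p of 0.00763. Tumor was below papilloma by 1.55 with an adjusted p of 0.0201. Without the columns of papilloma skin 1 and tumor 1 the tumor change was 1.28 with an adjusted p of 0.0578.

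The remaining calls of this list were made at a single stage. Axl, a receptor tyrosine kinase for apoptotic cells, rose by 1.62 in papilloma with an adjusted p of 0.0315 (0.171 on 7 columns), and Scarf2, an endothelial-type scavenger receptor, by 1.49 with an adjusted p of 0.00319. In tumor Cd163l1, of the cysteine-rich scavenger family, rose by 2.36 with an adjusted p of 0.00803. Its values were 6.06 and 5.90 in tumor skin, near the level minimum of 6, and 8.03 and 8.65 in tumor. They were 7.55 and 6.97 in papilloma skin and 7.30, 7.99 and 6.97 in papilloma. A probe of Sorl1, a sorting receptor of the lipoprotein receptor family, fell by 1.63 in tumor with an adjusted p of 0.0427. The brighter Sorl1 probe was not called, with group means of 14.86 in tumor skin and 14.27 in tumor. Leaving out single columns ended the Axl and Sorl1 calls for 6 of the 9 columns each and that of Cd163l1 for 1, tumor 2, whose adjusted p was then 0.0668. Whether these genes differ between the stages was not read from these calls. In tumor against papilloma, 2 probes of 2 genes of this list were called lower, Havcr2 among them, and 0 higher. Of all probes, 0.447% were called there in either direction. Scarf2 had group means of 9.85 in papilloma and 8.39 in tumor.

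Genes of lipid handling, 34 genes with 43 probes, had 6 probes of 5 genes called higher and 2 lower in papilloma, and 7 probes of 6 genes higher and 2 lower in tumor. The list medians were 0.19 and 0.16, and 3.18% and 4.21% of all probes were called in these comparisons. Hilpda, a lipid droplet protein that inhibits triglyceride breakdown, rose at both stages. Its first probe was 12.65 and 12.77 in papilloma skin and 15.30, 15.54 and 15.40 in papilloma. It was 13.14 and 13.04 in tumor skin and 15.50 and 15.52 in tumor. The changes were 2.70 with an adjusted p of 0.000114 and 2.42 with an adjusted p of 0.00043, and its second probe gave 2.88 and 2.35.

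Abca1, the cholesterol export pump, was 8.67 and 8.49 in papilloma skin and 10.77, 10.83 and 10.60 in papilloma. It was 8.72 and 8.96 in tumor skin and 11.20 and 11.32 in tumor. It rose by 2.16 with an adjusted p of 0.000261 in papilloma and by 2.42 with an adjusted p of 0.000496 in tumor, close to the size of the Olr1 change. Mylip, the ligase that marks lipoprotein receptors for degradation, rose by 1.21 and 1.70, and Srebf2, a regulator of cholesterol synthesis, by 1.11 and 1.66, each for 1 of its probes, with adjusted p of 0.0046 and 0.00219 for the first and 0.0148 and 0.00485 for the second. The second Mylip probe, at 0.67 and 0.80, was not called. The brighter Srebf2 probe was not called either. Its group means were 8.17 in papilloma skin and 9.23 in papilloma, and 8.14 in tumor skin and 8.34 in tumor. On 7 columns the papilloma calls of Mylip and Srebf2 were lost, with adjusted p of 0.0674 and 0.0503. All 4 genes are known from the control of lipid content in the cell.

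Alox15, which oxidizes lipids in eosinophils and resident macrophages, fell. It was 9.02 and 9.35 in papilloma skin, 7.12 and 6.72 in tumor skin, 5.55, 5.88 and 5.89 in papilloma, and 5.66 and 5.27 in tumor. The lesion values all lay under the level minimum of 6, which the mean of the probe passed only through the skin arrays. The changes were -3.41 with an adjusted p of 0.000201 and -1.46 with an adjusted p of 0.00838, the latter -1.26 with an adjusted p of 0.0705 without tumor 2. Eosinophil genes moved with it, 6 of 11 probes called lower in papilloma and 6 lower and 2 higher in tumor. Of all probes, 3.18% were called in papilloma and 4.21% in tumor, in either direction. Summed levels of the eosinophil genes in units of 1000 were 11.1 to 20.5 in skin and 4.33 to 9.35 in lesions. In tumor the sum was carried mostly by Siglec5, the gene of the 2 probes called higher, with log2 values of 12.87 and 12.74. The part of eosinophils in the Alox15 change was not tested. The granule genes Epx and Prg3 were well above background on 0 of the 6 arrays of full spike-in slope and Prg2 on 1.

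Lpl, lipoprotein lipase, fell by 2.05 in papilloma with an adjusted p of 0.0341, and Ppard, a nuclear receptor for fatty acids, rose by 1.17 with an adjusted p of 0.0279. Both calls were lost on 7 columns, with adjusted p of 0.10 and 0.202. In tumor Fabp4, a fatty acid binding protein of fat cells, endothelium and macrophages, rose by 2.29 with an adjusted p of 0.0386, and Acsl4, which activates arachidonic acid, by 1.11 with an adjusted p of 0.00885. Slc27a1, a fatty acid transporter, fell by 2.30 with an adjusted p of 0.0347, from 9.39 and 11.07 in tumor skin to 7.86 and 7.99 in tumor. On 7 columns the Acsl4 and Slc27a1 calls were lost, with adjusted p of 0.0546 and 0.153. The change of Slc27a1 was -1.46 without tumor skin 2, with an adjusted p of 0.0898, and -3.14 without tumor skin 1, and its call was lost without any of 6 of the 9 columns. Fabp4 was at 1.49 without tumor 2, with an adjusted p of 0.194, and its call was also lost without any of 6 columns (either tumor skin array, any papilloma array or tumor 2). Lpl was at -1.28 without papilloma skin 1, with an adjusted p of 0.139, and its call was lost as well without any 1 of the 3 papilloma arrays. Of the 11 calls in papilloma over these lists and the partners below, 6 were kept on 7 columns, and of 13 in tumor 10 were kept.

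**Figure D5:**
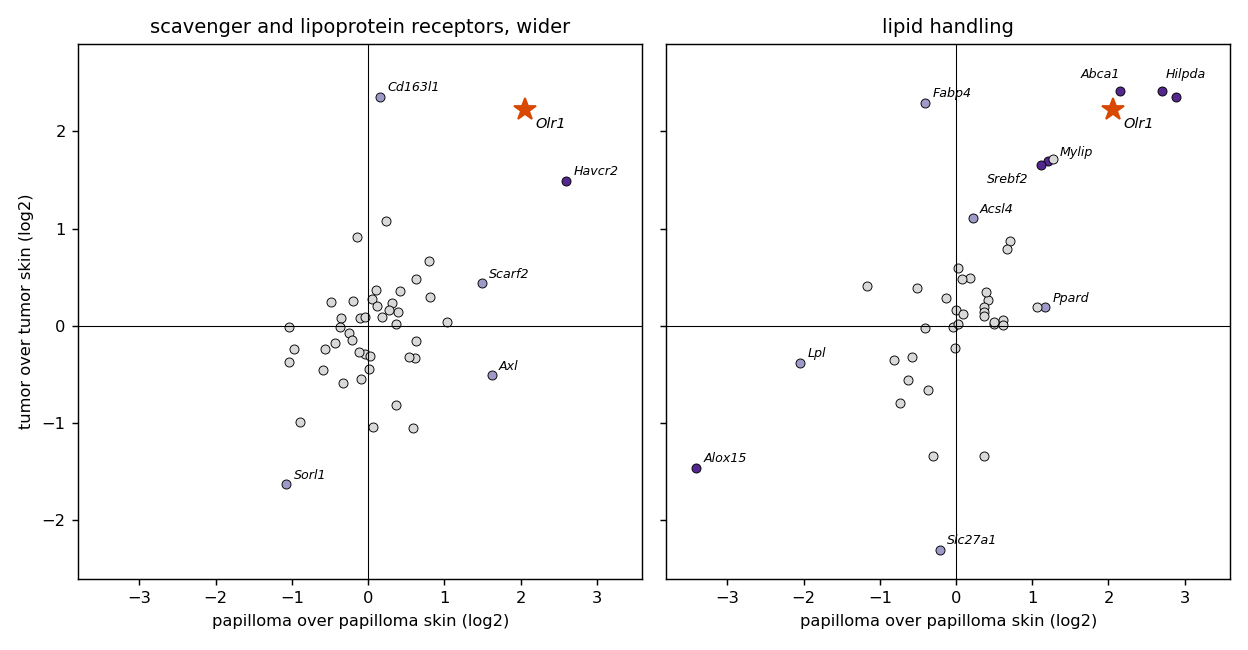
Log2 fold change of each probe of the wider receptor list (left) and the lipid handling list (right) in papilloma over papilloma skin (horizontal axis) and tumor over tumor skin (vertical axis); dark points were called at both stages, light purple points at one stage and grey points at neither, and the star is Olr1. Hilpda, Abca1 and Havcr2 lie in the same corner as Olr1 and Alox15 in the opposite one.

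For the partners of Cxcl16, the proteases Adam10 and Adam17, which shed it from the cell surface, were not called at either stage, and Adam17 had changes of 0.87 and 0.93 in tumor with adjusted p of 0.0553 and 0.0792. Cxcr6, its receptor, had a probe that rose by 2.01 in tumor over tumor skin with an adjusted p of 0.0242, while its other probe was at 1.47 with an adjusted p of 0.0649. The call was lost without tumor skin 1 or tumor 2, with adjusted p of 0.0931 and 0.154. Cxcr6 is also a marker of T cells. Of 15 probes for 10 T cell genes, 1 was called higher in tumor over tumor skin, that of Cxcr6, and 1 lower, of Cd3d. Of all probes, 4.21% were called in that comparison, in either direction. The part of T cells in the Cxcr6 change was not tested.

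The pattern of Olr1 over the 9 columns was compared with that of 6803 other probes by Pearson's r, as a description over arrays that share their groups. The 5 named genes most like it were Csf1 (r = 0.993), the growth factor of macrophages, Eea1 (0.992), a protein of early endosomes, Acp5 (0.991), the tartrate-resistant phosphatase, Kdsr (0.990), an enzyme of sphingolipid synthesis, and Il19 (0.990), a cytokine of the interleukin-10 family. All 5 were highest in papilloma and lowest in tumor skin, which follows from choosing them by likeness to Olr1 over these same columns. Il19 was at 5.01 to 5.95 in skin, under the level minimum of 6, which its mean passed only through the lesion arrays. Acp5 had log2 values of 12.08 and 11.98 in papilloma skin, 10.94 and 11.19 in tumor skin, 14.71, 14.82 and 14.48 in papilloma, and 13.73 and 14.04 in tumor. Among the members, the probes nearest to Olr1 by the same measure were the brighter ones of Vldlr, at 0.878, and Cd68, at 0.833, and Marco was farthest, at -0.897.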

How the data were processed

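Neutrophil RNA pooled from mice was hybridized to 9 single-colour arrays on 3 slides. The authors deposited scanner files with a background-subtracted fluorescence intensity per spot, and log2 values in a table, with a value for each probe and array. The methods describe quantile normalization and correction for the chip, with limma named in the submitters' processing notes, without stating which of these the deposited log2 values hold. The build mm9 is that of the positions in the scanner files.

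The table was fitted as deposited with limma (lmFit, eBayes) on the 4 groups, with 5 residual degrees of freedom, and p-values were adjusted by Benjamini-Hochberg over 55681 probes. A probe was called at an adjusted p of at most 0.05, a log2 fold change of at least 1 in size and an average log2 value of 6 or more, after the study's methods. The number of arrays, 2 or 3 a group, limits the precision, and p-values measure the spread between pools that is left in the deposited values. The fit took no degrees of freedom for any chip correction made before deposit. The SD of Olr1 was 0.15, 0.33, 0.069 and 0.0018 in papilloma skin, tumor skin, papilloma and tumor. In the quantile-normalized scanner signals it was 4.31, 1.27, 0.47 and 0.98. Named are all members, the genes of 2 lists called in lesion over skin at either stage (at most 12 a list), Adam10, Adam17 and Cxcr6, and the 5 gene symbols most like Olr1 by Pearson's r among probes of that level with an SD of at least 0.5. The members and lists were chosen with earlier results of these data known. Alternatives were 24 planned ones and 1, the 6 columns of arrays with full spike-in slope, added after the data were seen. They cover scanner files scaled in several ways, slide or replicate number in the model, level filters, an intensity trend, the gene as unit and leaving out each array. The code was tested on simulated data. Of 13 member probes, 11 matched RefSeq by accession. Promoter letters come from RefSeq on GRCm38.p6.

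Fits were run in limma 3.58.1 under R 4.3.3, and figures drawn with matplotlib 3.10.9 under Python 3.11.15, beside numpy 2.4.6 and pandas 2.3.3.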

Additional observations from a re-analysis of the deposited data

How the results depend on the processing

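Of 25 alternatives, Olr1 kept its direction under all and its call under 20 in papilloma over papilloma skin and 20 in tumor over tumor skin. Fits of the deposited table gave it 1.95 to 2.17 and 1.99 to 2.46, with the largest adjusted p at 0.0249 and 0.0311. The other 5 alternatives started from the scanner files and called no probe at either stage in limma, with 4967 to 7299 probes at an unadjusted p under 0.05 in papilloma and 925 to 7856 in tumor, and the cause was not tested. For all lesions over all skin they called 102 probes with normexp and 0 in the other 4, with 3693 to 10330 at an unadjusted p under 0.05. Olr1 in papilloma versus papilloma skin was 4.53 (quantile), 4.42 (quantile with slide), 4.15 (75th percentile), 2.97 (normexp) and 1.65 (6 arrays of full slope) there, and Olr1 in tumor versus tumor skin was 2.26, 1.73, 1.97, 1.92 and 2.33. The member probes called were 0 under these 5 alternatives in papilloma, in tumor and in all lesions over all skin.

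In papilloma over papilloma skin the count of member probes called went from 2 to 1 on 7 columns, on 6 columns, with the replicate block and with the gene as the unit, Msr1 being the one lost, and ranged from 1 to 2 when each array was left out. It was 1 without papilloma skin 1, any 1 of the 3 papilloma arrays or either tumor array. Over all lesions and all skin that count ranged from 1 to 2, with 2 without papilloma skin 2. Msr1 A_52_P127130 in papilloma versus papilloma skin turned to 0.33 and 0.0031 after quantile normalization of the scanner files without and with normexp background correction, in this order.

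Arrays with the same replicate number did not deviate together, with correlations of -0.957 to 0.376 over 12 pairs, so the numbers were not taken as pairs. With the replicate block, Olr1 was 2.05 in papilloma and 2.23 in tumor with adjusted p of 0.0196 and 0.0194, and calls over all probes went from 1769 to 552 in papilloma and from 2346 to 737 in tumor. With slide as a term, Olr1 was 1.99 and 2.31 with adjusted p of 0.0115 and 0.0311, and calls over all probes were 981 and 209.

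Over all 115 single values and their alternatives, 2857 in number, 2609 kept their side of the call, 235 lost a call, 11 gained one and 2 changed direction. A change of sign in a value that was not called before or after was counted as kept, and there were 195 of these. Signal over background limits Cd36 and the second Vldlr probe.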
